A study of Sus scrofa with 10 samples.

Results

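The genes described here encode the enzymes that release, break down, salvage, make and activate amino sugars of the N-acetylglucosamine and sialic acid family. They were taken as a list of 10 gene symbols (RENBP, NAGK, GNE, NANS, NANP, CMAS, NPL, NEU1, AMDHD2 and GNPDA1) looked up in the array's probe-to-gene table. Of these, 9 had a row, out of 13755 named genes on the array, and they were carried by 13 of 47845 probe sets. GNPDA1 had no row under its symbol and was not analysed here. NPL had 4 probe sets, NANP had 2 and the other 7 genes had 1 each. A gene's main probe set was the one with the highest mean on the 10 arrays.

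RNA came from alveolar macrophages, the phagocytes that live in the air spaces of the lung, of 5 Hampshire pigs. Frozen cells were thawed and kept overnight with recombinant human CSF-1, the macrophage growth factor, and both groups are labelled untreated at 0 h. From each pig, 1 array held non-adherent cells, harvested the next day and sorted for high size and granularity (n = 5), and 1 array held adherent cells (n = 5), for which no sort is stated. The adherent arrays had been run for a previous series that used these pigs, and their protocol text also speaks of removing adherent cells and of lipopolysaccharide, a bacterial stimulus, despite the untreated label. The comparison asks how unattached macrophages differ from attached ones of the same animals. All values are log2 probe set values. A difference is always non-adherent minus adherent, with the standard error (SE) of the limma fit, and adjusted p-values are limma's with Benjamini-Hochberg adjustment over all 13755 genes.

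Sialic acids are acidic sugars that cap the glycans of cell surface and secreted proteins. Cells make them from UDP-N-acetylglucosamine, the activated form of N-acetylglucosamine. GNE converts it to N-acetylmannosamine and phosphorylates that, NANS condenses the product with phosphoenolpyruvate, NANP removes the phosphate, and CMAS couples the free sialic acid to CMP in the nucleus for use by sialyltransferases. On the way back, the lysosomal sialidase NEU1 cuts sialic acid from glycans, the lyase NPL splits it into N-acetylmannosamine and pyruvate, and RENBP, the renin-binding protein, is the 2-epimerase that interconverts N-acetylmannosamine and N-acetylglucosamine. NAGK then phosphorylates N-acetylglucosamine, AMDHD2 removes its acetyl group, and GNPDA1 passes the carbon on to fructose 6-phosphate. Macrophages meet both routes, since they digest engulfed glycoproteins in lysosomes and carry sialic acid on their own surface.

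Group and array series coincided, so a difference between the groups and an effect of the series or the sort cannot be told apart. The arrays themselves differed by group. The 3 BioB hybridization control probe sets averaged 8.98 ± 0.19 on non-adherent and 5.78 ± 0.07 on adherent arrays (SD, n = 5 each), and the 18 background probe sets of highest GC content averaged 7.15 ± 0.08 against 7.79 ± 0.16. Both gaps had a two-sided exact permutation p of 0.00794, the smallest that 252 arrangements can give. The array of adherent animal 1 stood apart, with a mean correlation of 0.912 to its group across genes, against 0.961 to 0.963 for the other adherent arrays. Dendritic cell markers were higher in non-adherent cells, with 7 of 11 genes past the threshold upward and 0 downward (LAMP3, CCL22, CCL17, FLT3, FSCN1, CCR7 and XCR1), and a mean level of 7.02 to 8.19 per array against 6.06 to 6.30. For comparison with the marker counts, 6.72% of all named genes passed upward and 9.78% downward. Of 13 alveolar macrophage markers, 2 rose (CD163 and MSR1) and 1 fell (PPARG). Their mean level ran from 9.24 to 9.72 against 8.69 to 9.75. Without the array of adherent animal 1, 6 of these markers rose and 1 fell. In that fit 3067 of 13755 genes passed, in either direction. Among 11 T and NK cell, 4 B cell and 6 neutrophil markers none passed (limma; 1, 1 and 0 had an unadjusted p under 0.05), and of 9 epithelial markers only EPCAM did, downward. Without the array of adherent animal 1, 1 marker of each of the first 3 lists passed upward. The part of these differences in the results below was not tested, and in bulk RNA fewer cells of a type and less RNA per cell cannot be told apart.

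RENBP, NEU1, AMDHD2 and NAGK fell in non-adherent cells, and no member rose. These 4 of 9 genes compare with 9.78% of all named genes that passed the threshold downward, and 0 of 9 with 6.72% that passed upward. Members and the lists below were chosen with earlier results of these data known. Such shares therefore describe the lists and do not test them. All 4 genes that fell act in release, salvage or breakdown. None of the 4 enzymes of synthesis and activation, GNE, NANS, NANP and CMAS, passed, and 0 of them had an unadjusted limma p under 0.05. At the shares of 9.78% and 6.72%, no call among 4 genes is a common outcome. It does not by itself set synthesis apart from salvage. The median difference over the 9 genes was -0.58, beside 0.01 over all named genes. The 4 that fell were also the members whose groups did not overlap, a pattern that 8.63% of all named genes showed in the same direction. They passed in each fit that left out 1 array or 1 animal. With the animal as a block, NPL joined them, so that 5 of 9 members passed downward beside 10.4% of all genes. Without the array of adherent animal 1 the count was 4 of 9, beside 13% of all genes. Counted by probe set, 4 of 13 passed, beside 10.8% of all probe sets on the array in either direction.

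**Figure D1:**
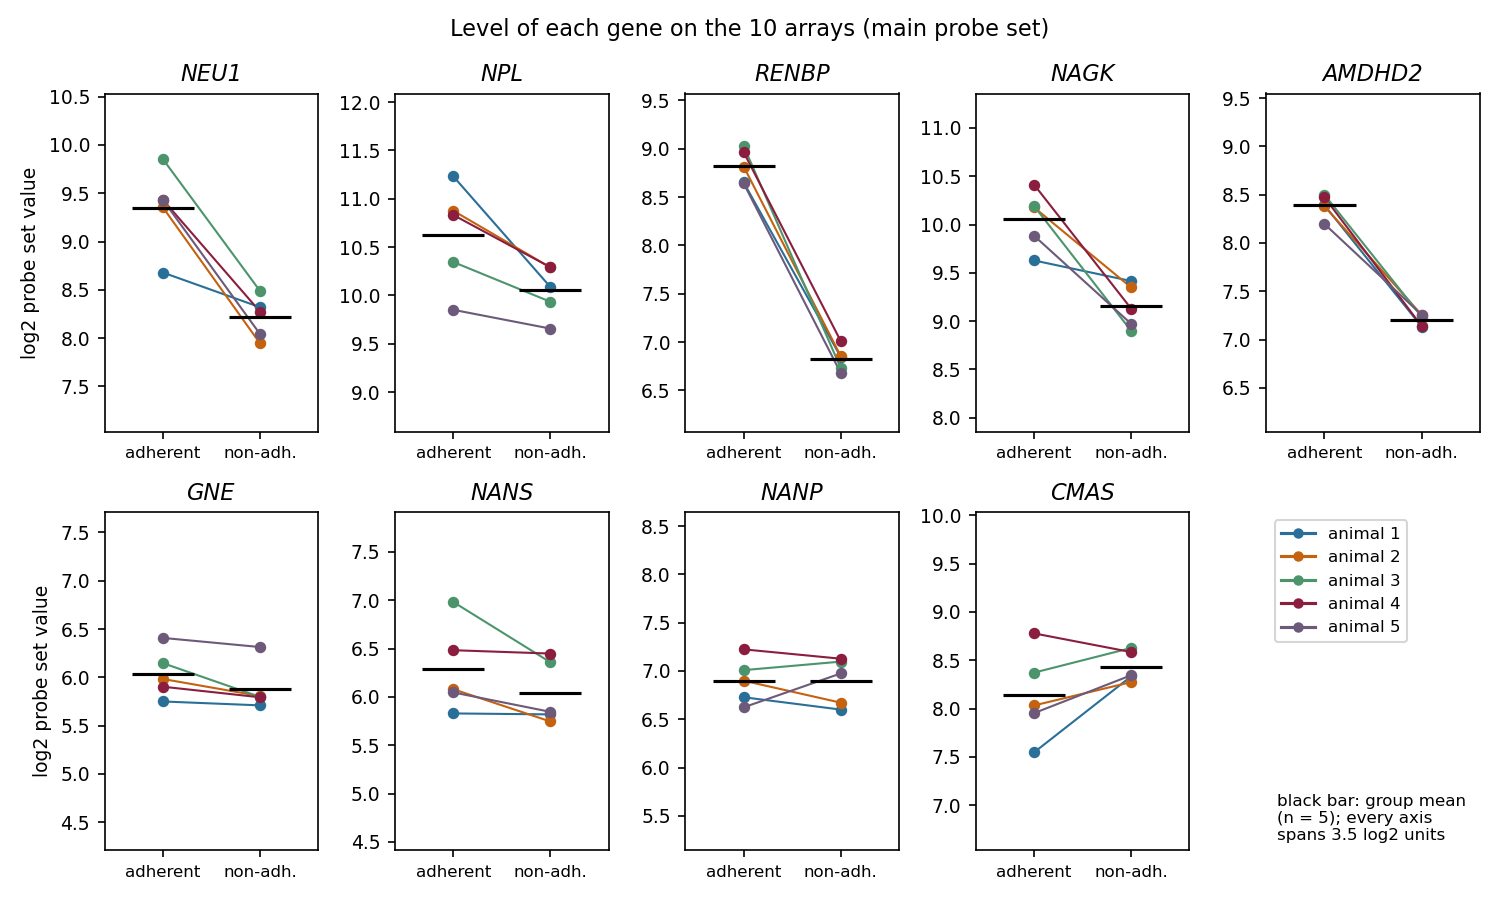
Log2 probe set value of each of the 9 genes (main probe set) in adherent and non-adherent cells, with a coloured line for each of the 5 animals and a black bar for the group mean; every vertical axis spans the same range. For RENBP, NEU1, AMDHD2 and NAGK all 5 non-adherent arrays lie below all 5 adherent arrays, whereas the groups overlap for NPL, GNE, NANS, NANP and CMAS.

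The release step came first in the order of breakdown. NEU1 read 8.68, 9.35, 9.85, 9.43 and 9.43 in adherent cells of animals 1 to 5, and 8.32, 7.95, 8.49, 8.27 and 8.04 in non-adherent cells. The groups were separated by a narrow gap of 0.19, set by the low adherent array of animal 1. NEU1 fell by 1.14 ± 0.19 (adjusted p = 0.00284), which is a 2.20-fold lower level, and was lower in 5 of 5 animals. The difference within animal 1 was -0.36, and within the other animals it lay between -1.41 and -1.16. Without the array of adherent animal 1 it was -1.30 (adjusted p = 0.00012).

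NEU1 works in the lysosome only in a complex with CTSA, the carboxypeptidase also called protective protein. CTSA differed by -0.15 ± 0.09 (adjusted p = 0.262). The within-array difference between NEU1 and CTSA shifted by -0.98 between the groups, downward in 5 of 5 animals (two-sided exact permutation p = 0.00794, adjusted p = 0.0106 over the 4 pairs compared). This test does not use the pairing of arrays by animal. A sign-flip test paired within animals gave an exact p of 0.0625 (adjusted p = 0.0833). No smaller p is possible with 5 pairs, so this paired test could not pass.

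NPL was the member whose answer depended most on how it was measured. Its main probe set read 11.23, 10.88, 10.35, 10.83 and 9.85 in adherent cells of animals 1 to 5, and 10.09, 10.29, 9.93, 10.29 and 9.66 in non-adherent cells. It was lower in non-adherent cells of 5 of 5 animals, by 0.19 to 1.15, but animals differed so widely that the groups overlapped. The difference of -0.58 ± 0.24 did not pass (adjusted p = 0.122), with a 95% interval from -1.10 to -0.06. It passed in the fit with an animal block (adjusted p = 0.0281), in the same block fit without animal 1 (-0.43, adjusted p = 0.0159), and without the array of adherent animal 5 (-0.77, adjusted p = 0.0263).

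The other 3 probe sets of NPL differed by -0.12 ± 0.34, -0.09 ± 0.28 and -0.28 ± 0.36. None passed over all probe sets (adjusted p from 0.668 to 0.88), nor with the animal as a block (0.532 to 0.839). Their direction split by animal. In animal 1 all 4 probe sets were lower in non-adherent cells, by 0.94 to 1.35, and in animal 4 by 0.16 to 0.54. In animals 3 and 5 the main probe set was lower while each of the other 3 was higher, by up to 0.57 in animal 3 and 0.69 in animal 5. Averaging all 4 probe sets gave a difference of -0.27 (adjusted p = 0.587). The lower level of NPL in 5 of 5 animals thus held for its brightest probe set and not for the rest.

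**Figure D2:**
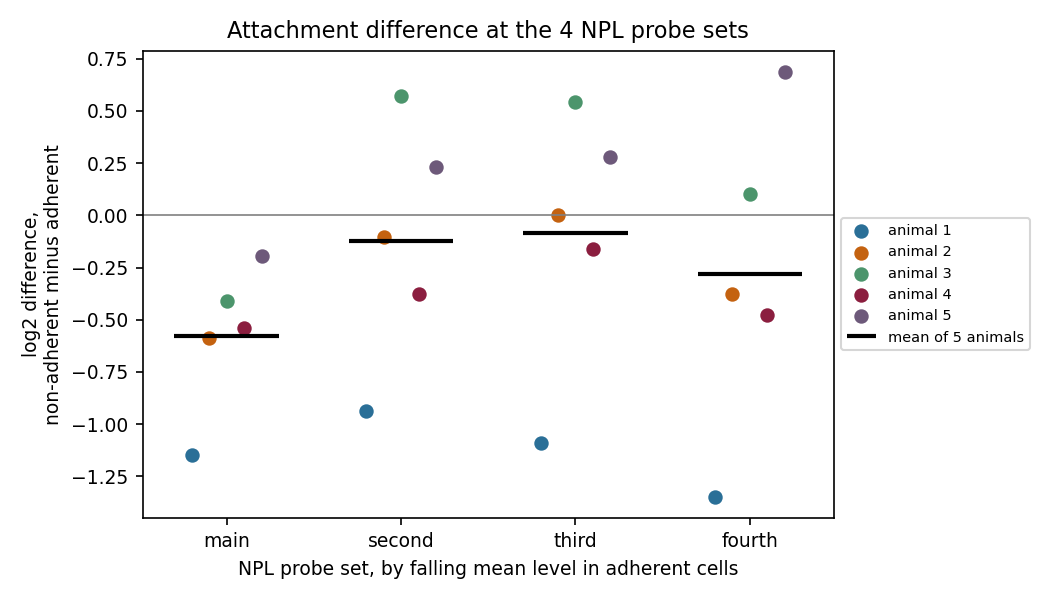
Log2 difference, non-adherent minus adherent, within each of the 5 animals (coloured points) at the 4 NPL probe sets, ordered by falling mean level in adherent cells, with the mean of the animals as a black line. Only the main probe set is below 0 in all 5 animals; animal 1 is the lowest point at every probe set, and animals 3 and 5 are above 0 at the other 3.

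RENBP showed the largest difference of the 9 genes. It read 8.65, 8.82, 9.03, 8.96 and 8.64 in adherent cells of animals 1 to 5, and 6.85, 6.85, 6.73, 7.01 and 6.68 in non-adherent cells. The gap between the lowest adherent and the highest non-adherent array was 1.63, several times the SD within either group (0.18 and 0.13). RENBP fell by 2.00 ± 0.10 (adjusted p = 3.54e-06), a 3.99-fold lower level. Only 7 of 13755 genes (0.0509%), RENBP included, passed with a fall at least this large, and it ranked 3 by p-value among all genes. The animals agreed closely, with single differences from -2.30 to -1.81. Animal 1, whose adherent array stood apart, gave the smallest of them, and without that array the difference was -2.04 (adjusted p = 2.95e-06).

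NAGK, the kinase that takes up the N-acetylglucosamine made by RENBP, also fell. It read 9.63, 10.18, 10.19, 10.41 and 9.88 in adherent cells and 9.42, 9.35, 8.90, 9.13 and 8.97 in non-adherent cells of animals 1 to 5. The groups did not overlap, but they were only 0.21 apart, because animal 1 had the lowest adherent and the highest non-adherent value. NAGK fell by 0.91 ± 0.16 (adjusted p = 0.00331), a 1.87-fold lower level. The difference was -0.21 in animal 1 and between -1.29 and -0.83 in the others. On the same arrays, RENBP minus NAGK shifted by -1.09 between the groups, downward in 5 of 5 animals (two-sided exact permutation p = 0.00794, adjusted p = 0.0106 over the 4 pairs). Paired within animals by sign flips, the exact p was 0.0625 (adjusted p = 0.0833). That is the smallest that 5 pairs can give, so the paired test could not pass.

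AMDHD2, the deacetylase of N-acetylglucosamine 6-phosphate, had the smallest SD of the 9 genes within both groups. It read 8.39, 8.38, 8.50, 8.47 and 8.20 in adherent cells and 7.13, 7.26, 7.24, 7.14 and 7.26 in non-adherent cells of animals 1 to 5. Within non-adherent cells the SD was 0.06, and the gap between the groups was 0.94. AMDHD2 fell by 1.18 ± 0.08 (adjusted p = 2e-05), a 2.27-fold lower level, and ranked 10 by p-value among all genes. The difference ran from -1.33 to -0.94 over the 5 animals. In contrast to NEU1 and NAGK, animal 1 did not stand out here, at -1.26. GNPDA2, the close relative of the unmeasured GNPDA1 and the next enzyme in the route, had means of 7.69 in both groups and differed by 0.01 ± 0.16 (adjusted p = 0.987).

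**Figure D3:**
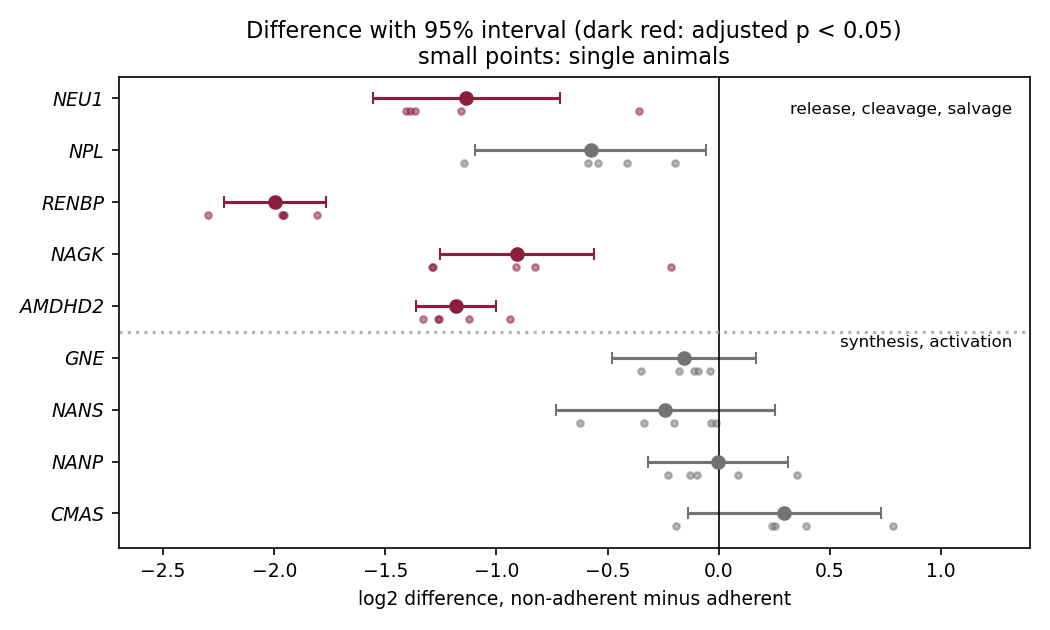
Log2 difference, non-adherent minus adherent, of the 9 genes with its 95% interval (large points) and the single animals (small points), with the enzymes of release, cleavage and salvage above the dotted line and those of synthesis and activation below it. Dark red marks an adjusted p under 0.05; RENBP lies at -2.00, the other 3 called genes between -1.18 and -0.91, and the 4 enzymes of synthesis between -0.24 and 0.30.

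The synthesis route began with GNE, its rate-limiting and feedback-inhibited enzyme. GNE read 5.75, 5.98, 6.15, 5.90 and 6.41 in adherent cells and 5.71, 5.81, 5.80, 5.79 and 6.31 in non-adherent cells of animals 1 to 5. Animal 5 was highest and animal 1 lowest in both groups. The difference of -0.15 ± 0.15 did not pass (adjusted p = 0.516), and its 95% interval ran from -0.48 to 0.17, although the sign was negative in 5 of 5 animals. Leaving out 1 array of animal 5, which was high in both groups, moved the difference. It was -0.06 without that animal's adherent array and -0.26 without its non-adherent array, but -0.17 without both. The probe set was dim, not far above the median of all probe sets, 5.02. GNE makes N-acetylmannosamine for synthesis, and RENBP interconverts it with N-acetylglucosamine. RENBP minus GNE shifted by -1.84 between the groups, with single animals between -1.95 and -1.77 (two-sided exact permutation p = 0.00794, adjusted p = 0.0106 over the 4 pairs). That p is the smallest that 252 arrangements can give. Most of the shift is the difference of RENBP itself, -2.00, so the pair adds little to it. The paired sign-flip test again gave the smallest p that 5 pairs allow (exact p = 0.0625, adjusted p = 0.0833), so it could not pass.

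NANS, the sialic acid 9-phosphate synthase, read 5.83, 6.08, 6.98, 6.48 and 6.05 in adherent cells and 5.82, 5.75, 6.36, 6.45 and 5.85 in non-adherent cells. Animals 3 and 4 were the high ones in both groups. Its difference of -0.24 ± 0.22 did not pass (adjusted p = 0.503), with an interval from -0.73 to 0.25. Its sign was negative in 5 of 5 animals. Dropping only the adherent array of animal 3, which was high in both groups, gave -0.07. Dropping both arrays of animal 3 gave -0.14. The shift of NPL minus NANS, lyase against synthase, was -0.34 and also did not pass (two-sided exact permutation p = 0.429), with 3 animals downward and 2 upward. It was -0.07 without the array of adherent animal 1 and -0.58 without that of adherent animal 3.

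NANP, the phosphatase that frees sialic acid, had the smallest difference of the 9 genes. It read 6.73, 6.90, 7.01, 7.22 and 6.62 in adherent cells and 6.60, 6.67, 7.10, 7.13 and 6.97 in non-adherent cells. Its difference was -0.003 ± 0.144 (adjusted p = 0.993), lower in 3 animals and higher in 2, with an interval from -0.32 to 0.31. Its sign changed with the arrays left out, between -0.07 and 0.08 without 1 array. The interval leaves out a change as large as that of NAGK, NEU1, AMDHD2 or RENBP in either direction. Its second probe set lay below the median of all probe sets in both groups, at 4.80 and 4.79, and differed by 0.01 ± 0.17.

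CMAS was the only member with a higher mean in non-adherent cells. It read 7.55, 8.03, 8.37, 8.78 and 7.95 in adherent cells and 8.33, 8.27, 8.63, 8.59 and 8.34 in non-adherent cells of animals 1 to 5. Adherent cells spread far more widely than non-adherent ones, with an SD of 0.46 against 0.16, and animal 4 went the other way. The difference of 0.30 ± 0.20 did not pass (adjusted p = 0.336), with an interval from -0.14 to 0.73. Animal 1 contributed 0.79, and without its adherent array the difference was 0.15 (adjusted p = 0.557). Without the adherent array of animal 4 it was 0.46 (adjusted p = 0.0861).

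The sum of squares of each gene was also split into group, animal and the rest. Animal has more levels than group, so its share tends to be larger even where neither has an effect. The shares are a description and not a test. Group accounted for 98.1% of the sum of squares of RENBP, 98.0% of AMDHD2 and 78.0% each of NEU1 and NAGK. For GNE, NANS, NANP, CMAS and NPL it accounted for 10.8%, 10.2%, 0.004%, 18.6% and 36.6%, while animal accounted for 84.0%, 80.9%, 77.4%, 60.6% and 52.4%. Over all named genes the medians were 20.8% for group and 38.8% for animal. A test of the animal term, added after these values were seen, passed for 0 of 9 members (limma F test with the animal as a block), with unadjusted p-values of 0.00560 for NANS, 0.0164 for NPL and 0.0170 for GNE. Over all genes it passed for 0.204%. Without animal 1 it passed for NPL (adjusted p = 0.0441) and for 2.44% of all genes.

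**Figure D4:**
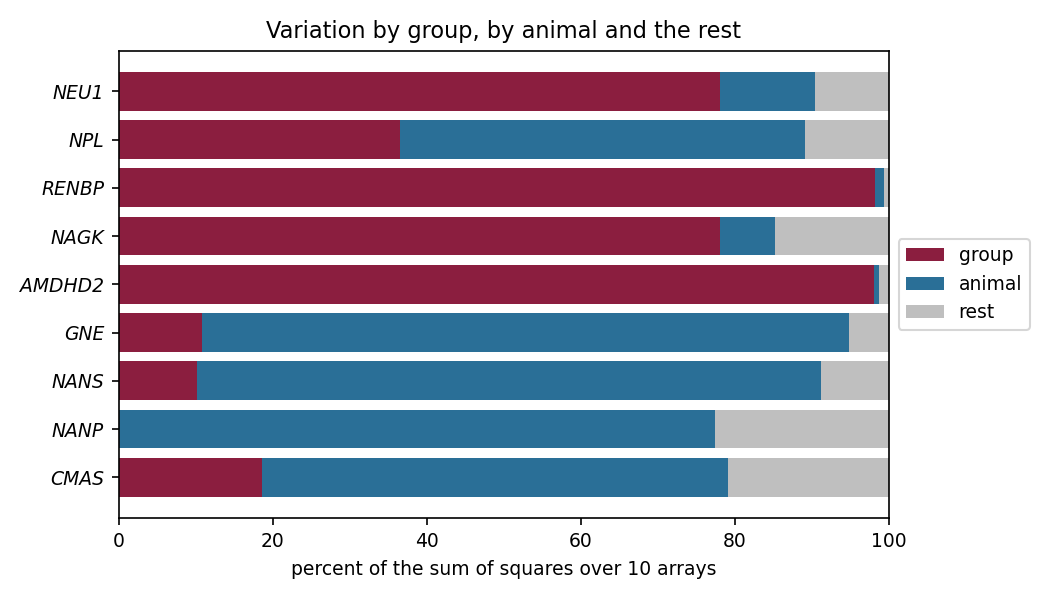
Share of each gene's sum of squares over the 10 arrays, in percent, that lies between the groups, between the 5 animals, and in the rest. The group share is 78.0% or more for RENBP, AMDHD2, NEU1 and NAGK. The animal share is 52.4% or more for NPL, GNE, NANS, NANP and CMAS. Animal has more levels than group, so its share tends to be larger even where neither has an effect.

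Around this route, 5 of 16 measured genes of lysosomal sugar hydrolases and sialic acid export fell and 0 rose, beside the 9.78% and 6.72% above, with a list median of -0.30. GALNS, a sulfatase of keratan sulfate and chondroitin sulfate, fell by 0.91 ± 0.12 (adjusted p = 0.000849), while averaging its 2 probe sets gave -0.53. GLB1, the beta-galactosidase that shares the complex of CTSA and NEU1, fell by 0.68 ± 0.16 (adjusted p = 0.0129). It was lower in 4 of 5 animals and 0.06 higher in animal 1, so the groups overlapped. Averaging its 3 probe sets gave -0.96, and leaving out both arrays of animal 1 gave -0.87. The GLB1 call was lost without both arrays of animal 2, 3, 4 or 5, with a highest adjusted p of 0.0709. HYAL3, a hyaluronidase family member, fell by 0.38 ± 0.09 (adjusted p = 0.0172), a call lost without animal 1 (0.0502) or 2 (0.0688). Its probe set was dim, with means of 5.32 in non-adherent and 5.70 in adherent cells, beside a median of 5.02 over all probe sets. The remaining 2 lie outside the naming rule and were named after their values were seen. SLC17A5, which exports free sialic acid from the lysosome, fell by 0.51 ± 0.14 (adjusted p = 0.0314), and HEXA, a beta-hexosaminidase subunit, fell by 0.28 ± 0.08 (adjusted p = 0.0390). Both calls were fragile, lost on leaving out any of 6 arrays for SLC17A5 and 8 arrays for HEXA (highest adjusted p 0.0742 and 0.0806). Leaving out both arrays of any 1 of the 5 animals ended the HEXA call (highest adjusted p 0.137). The SLC17A5 call was lost without animal 1, 3 or 4 (highest adjusted p 0.0955). Averaging its 2 probe sets also ended the SLC17A5 call (-0.28, adjusted p = 0.0756), and the animal block ended the HEXA call (0.0792). The count of falling genes was 4 with 1 rising without adherent animal 1. It was 3 without animal 1, without adherent animal 3 or without non-adherent animal 1, 2, 3 or 5, and 2 without both arrays of animal 2, 3 or 4. In other fits it was 5 with the animal as a block or without both arrays of animal 5. It was 6 with arrays centred on their median and 7 without adherent animal 5.

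Of 9 genes that supply UDP-N-acetylglucosamine or cycle O-linked N-acetylglucosamine, 0 passed, beside 6.72% of all named genes upward and 9.78% downward. By limma, 1 of these genes had an unadjusted p under 0.05. Their list median was -0.12, and UAP1, which makes UDP-N-acetylglucosamine, had the lowest p with -0.53 ± 0.19 (adjusted p = 0.0784). GFPT1, the entry enzyme of the hexosamine route, differed by 0.03 ± 0.16, and OGT, the O-linked N-acetylglucosamine transferase, by 0.09 ± 0.08; both were named for their role, outside the naming rule. Without the array of adherent animal 1, 1 gene of this list passed downward, beside 13% of all genes.

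Among genes that transport, transfer or modify sialic acid, 1 of 25 rose and 0 fell, beside 6.72% and 9.78% of all named genes, and the list median was -0.002. ST3GAL2, a sialyltransferase that adds sialic acid in alpha-2,3 linkage to galactose, rose by 1.30 ± 0.14 (adjusted p = 0.000254), from 6.14 to 7.44, and was higher in 5 of 5 animals with groups that did not overlap. Averaging its 4 probe sets gave 0.57 (adjusted p = 0.000709). The count of rising genes was 3 without adherent animal 1, and 2 without both arrays of animal 1 or without non-adherent animal 3. Of 6 measured Siglecs, the cell surface receptors that bind sialic acid, none passed, beside the same 6.72% and 9.78%. By limma, 1 upward and 2 downward had an unadjusted p under 0.05. SIGLEC15 had the lowest p, with -0.28 ± 0.11 (adjusted p = 0.107), and SIGLEC1, the sialoadhesin of macrophages, named after its value was seen, differed by 1.15 ± 0.47 (adjusted p = 0.120). Without adherent animal 1, 1 Siglec passed upward and 1 downward.

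**Figure D5:**
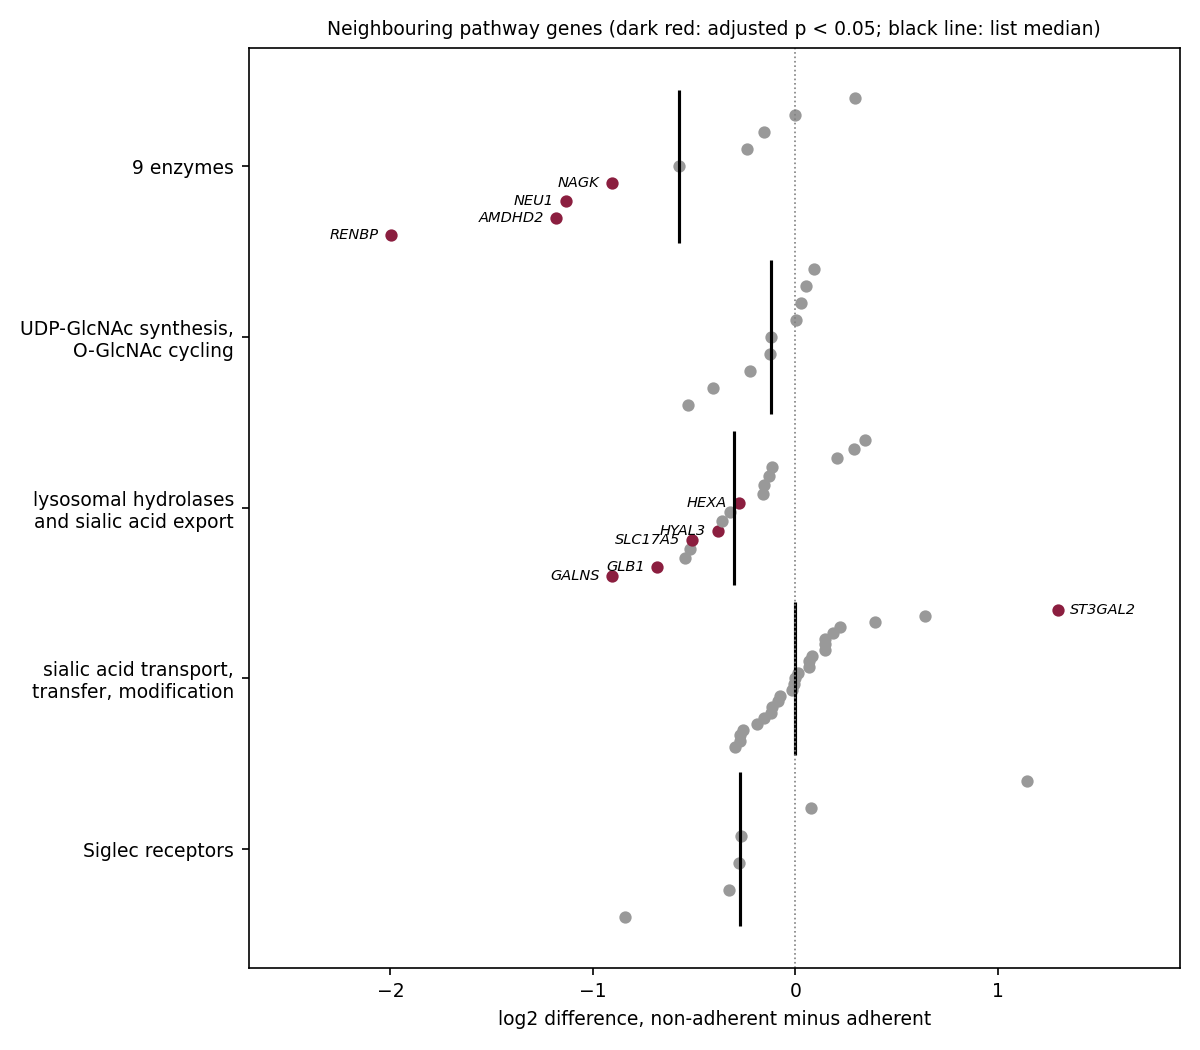
Log2 difference, non-adherent minus adherent, of each measured gene in the 9-enzyme list and 4 neighbouring lists, with the list median as a black line and genes with an adjusted p under 0.05 in dark red with their names. The 9 enzymes have a median of -0.58, the lysosomal list -0.30 with 5 called genes, and ST3GAL2 at 1.30 is the only called gene above 0.

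Over the 10 arrays, the genes whose centred profiles lay nearest to that of RENBP were TOLLIP, an inhibitory adaptor of Toll-like receptor signalling (root mean square difference 0.158 in log2 units), SEMA7A, a membrane semaphorin (0.170), and RNH1, the ribonuclease inhibitor (0.232). TOLLIP differed by -1.83, SEMA7A by -1.79 and RNH1 by -2.36. The nearest to NEU1 were BAX, a pro-apoptotic BCL2 family member (0.126), HVCN1, a voltage-gated proton channel (0.127), and TSR2, a ribosome maturation factor (0.157), with differences of -1.05, -1.24 and -1.14. Each was chosen among 9909 genes brighter than the median of all probe sets, as a description of these 10 arrays.

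An alternative chosen after the data were seen took the high-GC background into the fit. With each array's mean high-GC background as a covariate, which runs with the group, 4 of 13755 genes passed. RENBP was the 1 member among them (-2.34, adjusted p = 0.0492). NAGK (-1.70, adjusted p = 0.277), AMDHD2 (-1.26, adjusted p = 0.242) and NEU1 (-1.38, adjusted p = 0.507) kept their direction and no longer passed.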

How the data were processed

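The deposited table holds log2 probe set values of 10 Affymetrix Snowball pig arrays. RMA and Partek appear in the submitters' processing notes, with no version. Joint normalization of both groups, and a genome build, are not given in the sources used here. The medians of the arrays were 4.97 to 5.09, so no pseudocount or scaling was applied. The number of arrays, 5 per group, limits the precision.

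Of 47845 probe sets, 26426 carried 1 gene symbol in the platform annotation, which can be old, 0 carried several and 21419 were unnamed here. The probe set with the highest mean represented a gene.

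Groups were compared with lmFit and eBayes of limma 3.58.1 under R 4.3.3, two-sided, with Benjamini-Hochberg adjustment over 13755 genes, or over all probe sets for single probe sets, at a threshold of 0.05. Within-array differences of 4 gene pairs were compared by exact permutation over 252 arrangements. Figures were drawn with matplotlib 3.10.9. The fit was tested on simulated data.

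Both groups come from the same individuals per the series design, so arrays with 1 animal number are pairs. Their residuals correlated at 0.116, 0.22, 0.398, 0.364 and 0.394 for animals 1 to 5 across genes, which are not independent replicates. A fit with an animal block was an alternative, as were leaving out animals and arrays, other scalings, a filter on dim genes, the mean of probe sets, other variance settings, array weights and a random animal effect.

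All members are named. From each of 4 pathway lists the genes past the threshold are named, up to 3 by lowest p in each direction, or the gene with the lowest p where none passed, and CTSA always. For RENBP and NEU1 the 3 genes with the nearest centred profile are named. Members, lists and the naming rule were chosen with earlier results of these data known. No sequences were used here.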

Additional observations from a re-analysis of the deposited data

Results flagged for a closer look

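Of 26 groups of 5 arrays, the 13 probe sets in both cell groups, 2 held a single array far from the rest by Dixon's 95% criterion for a group of this size. Chance flags about 1 in 20 groups. GNE on the non-adherent array of animal 5 read 6.31, against 5.71 to 5.81 on the other 4, and the same animal was also highest among adherent arrays. The second NPL probe set on the same array read 8.77, against 9.38 to 9.62 on the others, and animal 5 was again the lowest among adherent arrays, at 8.54.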

How the results depend on the processing

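With all arrays 4 members passed downward and 0 upward, on 4 of 13 probe sets. These counts were 4 and 0 in every fit that left out 1 animal, and 4 to 5 and 0 in those that left out 1 array. Over all genes the count of 2270 ran from 1119 to 2576 without 1 animal and from 1638 to 3067 without 1 array, and was 3495 with the animal as a block without animal 1. RENBP, NAGK, NEU1 and AMDHD2 passed in all 25 alternatives other than the 2 that follow. With the high-GC background as a covariate, 1 member and 4 genes passed, and with limma's treat at a fold of 1.5, 2 members and 92 genes did; NAGK and NEU1 passed in neither. With the animal as a block NPL was added to the members past the threshold, making 5, and no other member's call changed. Paired within animals by sign flips, RENBP minus NAGK (-1.09), RENBP minus GNE (-1.84) and NEU1 minus CTSA (-0.98) had adjusted p-values of 0.0833, since 5 pairs cannot give an exact p below 0.0625. Leaving out 1 animal, those 3 shifts ran from -1.20 to -0.97, from -1.86 to -1.82 and from -1.15 to -0.89. Leaving out 1 array, they ran from -1.14 to -1.03, from -1.98 to -1.70 and from -1.14 to -0.85. NPL minus NANS ran from -0.47 to -0.14 and from -0.58 to -0.07 and did not pass. The cause of these changes was not tested. GNE, NANS, HYAL3 and the second NANP probe set were dim, which limits what their values can show.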
